A study of Caenorhabditis elegans with 2 samples.

Results

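The genes described here are the nuclear genes of Caenorhabditis elegans for the mitochondrial ribosome, the respiratory chain and the ATP synthase. They were taken by name, as protein-coding genes whose symbol starts with mrpl-, mrps-, nuo-, cox-, atp-, ucr-, cyc-, sdha-, sdhb-, sdhc- or sdhd-, and 108 of 19973 protein-coding nuclear genes met the rule. No sdhc- symbol was found. By the symbol they divide into 41 genes for the large and 29 for the small subunit of the mitochondrial ribosome. Complex I has 6, complex II 4, complex III with cyc-1 6, cytochrome c 2 and the ATP synthase 5. Of the cox- genes, 7 are for subunits of complex IV, and 8, those numbered 10 or above, for its assembly. The prefix can mislead, since RefSeq names the product of mrps-18C as a large subunit protein. The readout was chromatin immunoprecipitation with sequencing (ChIP-seq) of the T-box transcription factor TBX-8, which is known for its part in shaping the embryo. Per the labels, whole embryos of strain RW10470 were used for 2 biological replicates. The strain carries the transgene tbx-8::TY1::EGFP::3xFLAG with the rescue marker unc-119(+) in an unc-119(ed3) background. The embryos were of mixed stage and mixed sex, had a labelled age of 2.5 hours and were obtained by egg bleaching. Both replicates came from this 1 transgenic line and carried the tagged factor, precipitated through its GFP tag, and they formed 1 group. No precipitation from a line without the tag was analysed here, so binding of TBX-8 and signal that does not depend on it cannot be told apart.

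Mitochondria keep a small genome that encodes a few proteins of the respiratory chain, and these are made on a ribosome of their own whose proteins all come from nuclear genes. Most other subunits of complexes I, III and IV and of the ATP synthase, and all those of complex II, are also encoded in the nucleus and imported. Electrons pass from complexes I and II to complex III, through cytochrome c to complex IV and on to oxygen, and the ATP synthase uses the resulting proton gradient. The genes are expressed in nearly every cell.

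The question put to the lists was whether the mitochondrial genes lie near regions of high signal more often than protein-coding genes at large, and where those regions lie. Each gene was given the highest region with its summit, the position of strongest signal, within 2 kb of any of its transcript starts. The highest region was taken in each list on its own, so the value of a gene in a replicate can come from another place within reach than its pooled region, and positions are those of the pooled region. Signal is the peak caller's own value for a region, has no stated scale, and was compared within a list or by rank. The authors deposited a list for each replicate and a list from both replicates pooled, which hold background regions on purpose, and a thresholded list of 521 regions, here called peaks. Read numbers are not in the files used here, so the depth behind each value is unknown. With 1 group there was no test to make between conditions, and counts are set beside the same counts over all genes, with no p-value.

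The bases under 7 of the summits are shown because they are the places the later results turn on. The first 3 are high regions away from the members' own starts that hold a word of tRNA type promoters, the next is the highest region with none of the words searched, and the last 3 lie just upstream of their own gene. Each is read on the strand of the member, from RefSeq's WBcel235 genome, which is the ce11 assembly of the files, and covers up to 100 bp on either side of the summit with annotated UTR bases left off. Coordinates are chrV:19643116-19643316 for mrps-28, chrII:12678283-12678483 for cox-10, chrIII:89244-89424 for mrpl-40, chrIV:4749980-4750180 (minus strand) for cyc-2.1, chrIII:5228085-5228285 for atp-2, chrII:5474068-5474268 for mrps-16 and chrIII:3510064-3510236 for mrpl-35. Capitals mark GTTCGANNC (the core of the B box, an internal promoter element of tRNA genes), GGGCGG (SP1-type), CACGTG (E-box) and GAGAGA, each on either strand.
mrps-28: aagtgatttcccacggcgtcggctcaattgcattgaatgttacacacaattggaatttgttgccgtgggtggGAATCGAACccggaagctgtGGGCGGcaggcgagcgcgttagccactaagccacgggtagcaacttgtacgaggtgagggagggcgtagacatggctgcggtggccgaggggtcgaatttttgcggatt
cox-10: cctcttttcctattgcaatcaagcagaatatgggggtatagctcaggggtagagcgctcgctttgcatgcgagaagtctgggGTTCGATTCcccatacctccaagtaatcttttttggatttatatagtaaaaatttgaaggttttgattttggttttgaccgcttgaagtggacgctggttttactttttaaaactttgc
mrpl-40: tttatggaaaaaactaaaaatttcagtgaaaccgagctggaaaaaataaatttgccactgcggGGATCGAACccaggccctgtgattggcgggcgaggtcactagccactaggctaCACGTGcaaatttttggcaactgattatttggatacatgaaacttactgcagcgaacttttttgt
cyc-2.1: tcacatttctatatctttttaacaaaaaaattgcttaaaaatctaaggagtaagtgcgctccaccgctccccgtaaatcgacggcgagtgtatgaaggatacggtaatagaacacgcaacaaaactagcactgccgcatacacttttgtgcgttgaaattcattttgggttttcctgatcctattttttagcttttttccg
atp-2: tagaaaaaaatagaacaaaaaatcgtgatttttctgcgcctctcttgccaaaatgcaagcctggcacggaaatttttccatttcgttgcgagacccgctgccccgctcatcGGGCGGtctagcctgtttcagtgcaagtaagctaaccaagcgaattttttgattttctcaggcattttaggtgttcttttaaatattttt
mrps-16: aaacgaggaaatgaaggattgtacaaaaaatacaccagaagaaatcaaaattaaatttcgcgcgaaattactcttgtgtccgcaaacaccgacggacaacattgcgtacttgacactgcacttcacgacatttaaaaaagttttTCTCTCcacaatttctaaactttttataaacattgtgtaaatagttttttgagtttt
mrpl-35: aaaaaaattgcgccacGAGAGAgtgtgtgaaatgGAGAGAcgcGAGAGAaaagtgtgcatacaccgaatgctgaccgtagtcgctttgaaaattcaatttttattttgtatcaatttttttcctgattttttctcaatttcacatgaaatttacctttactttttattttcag

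Regions were common near the mitochondrial genes. A region of the pooled list, background included, lay within 2 kb of a start at 81 of the 108 genes (75.0%, exact 95% interval 65.7% to 82.8%), against 47.5% of all protein-coding genes. A thresholded peak lay within reach of 12 (11.1%, interval 5.87% to 18.6%), against 3.04% of all genes. Pooled regions at a deposited q below 0.05 reached 17 (15.7%, interval 9.45% to 24.0%), against 4.85%. In the replicates taken alone, 20 mitochondrial genes (18.5%) had a region at q below 0.05 in replicate 1, against 5.15% of all genes, and 18 (16.7%) in replicate 2, against 4.58%. Both replicate lists reached that threshold at 14 of them (13.0%), against 2.79%. The 12 were mrps-28, cyc-2.1, mrpl-23, ucr-11, cox-5B, cox-6A, mrps-21, mrpl-40, mrpl-51, mrpl-12, cox-10 and atp-2, each with a region of its own, and mrps-6, mrps-23, mrps-16, cox-6B and mrpl-35 were added at q below 0.05. The intervals cover counting error only, and neighbouring genes can share a region.

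The share depended on the reach. With a reach of 500 bp, 2 of 108 mitochondrial genes (1.85%) kept a peak, atp-2 and cox-5B, against 1.31% of all genes. With 1 kb the count was 5 (4.63%), against 2.02%, and with 5 kb it was 18 (16.7%), against 5.89%. When a region counted only for the gene with the nearest start, 6 (5.56%) had a peak, against 1.86%. At q below 0.05, 5 of 108 (4.63%) had a region within 500 bp, against 2.18% of all genes. Of the 12 peaks, 7 lay more than 1 kb from the start.

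**Figure D1:**
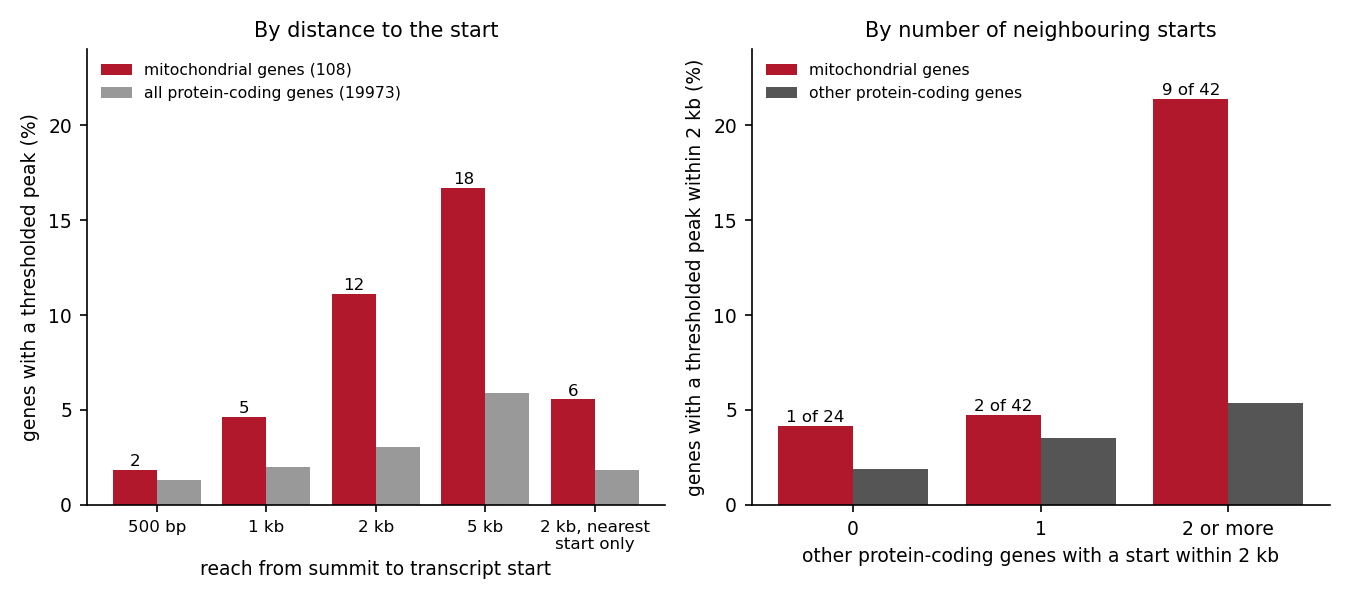
Left, percent of the 108 mitochondrial genes (red, number of genes above each bar) and of all 19973 protein-coding genes (grey) with a thresholded peak, for each reach from summit to start. Right, the same percent within 2 kb by the number of other protein-coding genes with a start within 2 kb, for mitochondrial and for other genes. The bars of the mitochondrial genes are close to those of all genes at 500 bp and tallest where 2 or more other starts are near.

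Mitochondrial genes had close neighbours more often than other genes, which bears on a rule that counts 1 region for every start in reach. At 84 of the 108 (77.8%) another protein-coding gene had a start within 2 kb, against 50.5% of other genes, and the mean number of such neighbours was 1.31 ± 1.00 (SD, n = 108), against 0.685 ± 0.806. With no such neighbour, 1 of 24 mitochondrial genes (4.17%) had a peak, cox-6A, against 1.88% of other genes. With 1 neighbour it was 2 of 42 (4.76%), cox-5B and mrpl-23, against 3.54%. With 2 or more it was 9 of 42 (21.4%), against 5.39%. How far the neighbours account for the peaks counted here was not tested.

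Of the mitochondrial ribosome genes, 6 of 70 (8.57%) had a peak within 2 kb, against 3.04% of all genes. The large subunit had 4 of 41 (9.76%) and the small subunit 2 of 29 (6.90%). The highest region near any of the 108 genes belonged to mrps-28, which encodes a protein of the small subunit, with a signal of 168 in replicate 1, 121 in replicate 2 and 291 pooled. By pooled signal mrps-28 was number 14 of all genes. Its pooled region (V, 19643124 to 19643324) had a summit 1023 bp upstream of the gene, inside an intron of Y43F8C.7, 29 bp from the snoRNA gene Y43F8C.22 and nearer to the start of Y43F8C.7 (814 bp). The other small subunit gene with a peak was mrps-21, with 52.2 in replicate 1, 50.9 in replicate 2 and 107 pooled. Both replicates placed mrps-21 above 98.1% of all genes or more. The region (IV, 4660318 to 4660777) was intergenic, with the summit 1031 bp upstream, with F29B9.11 nearer (347 bp). The closest summit in replicate 2 was 142 bp from it.

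In the large subunit, mrpl-23 had a signal of 88.1 in replicate 1, 77.0 in replicate 2 and 169 pooled. The region (I, 6212650 to 6213109) had a summit 995 bp upstream of mrpl-23 inside the noncoding gene T08B2.14 and within fars-1, a gene for a cytoplasmic phenylalanine tRNA synthetase subunit, 56 bp from the snoRNA gene T08B2.13. RefSeq also annotates a tRNA pseudogene under that summit. The region at mrpl-40 had 54.2 in replicate 1, 39.96 in replicate 2 and 99.8 pooled, and lay 1765 bp into and past the short gene, between it and pat-4. The region at mrpl-51 had 46.1 in replicate 1, 47.2 in replicate 2 and 89.0 pooled (IV, 12032393 to 12032852), 1299 bp downstream of the start. For mrpl-12, named for the protein that forms the mobile stalk of bacterial ribosomes, the values were 43.6, 42.5 and 88.5 (III, 10706998 to 10707457), with the summit 533 bp upstream and Y39A1A.22 nearer (200 bp). None of the 4 regions lay within 500 bp of its own gene's start, and all 4 were in the top 10% of genes in both replicates.

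Closer to their starts, at q below 0.05 but below the thresholded list, were mrps-16 and mrpl-35. The region at mrps-16 lay 205 bp upstream in intergenic sequence, with a signal of 30.1 in replicate 1, 33.9 in replicate 2 and 69.0 pooled. The pooled region at mrpl-35 (64.3) lay 73 bp upstream, with 42.1 in replicate 2. The highest region of replicate 1 within reach had 31.5, and the closest summit of that list was 146 bp from the pooled one. Both passed q below 0.05 in replicate 2 and the pooled list but not in replicate 1. For mrps-6 the values were 43.2, 33.6 and 74.2, in an intron of the proteasome gene rpn-8, 15 bp from the snoRNA gene R12E2.17 and 1208 bp upstream. For mrps-23 they were 46.5, 28.4 and 71.9, 1825 bp downstream of the start and nearer to the splicing factor gene prp-40 (228 bp), and mrps-23 did not pass in replicate 2. At the low end, mrps-15 had a pooled signal of 27.8 at 56 bp from its start, close to the lowest value in the pooled list (27.5).

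**Figure D2:**
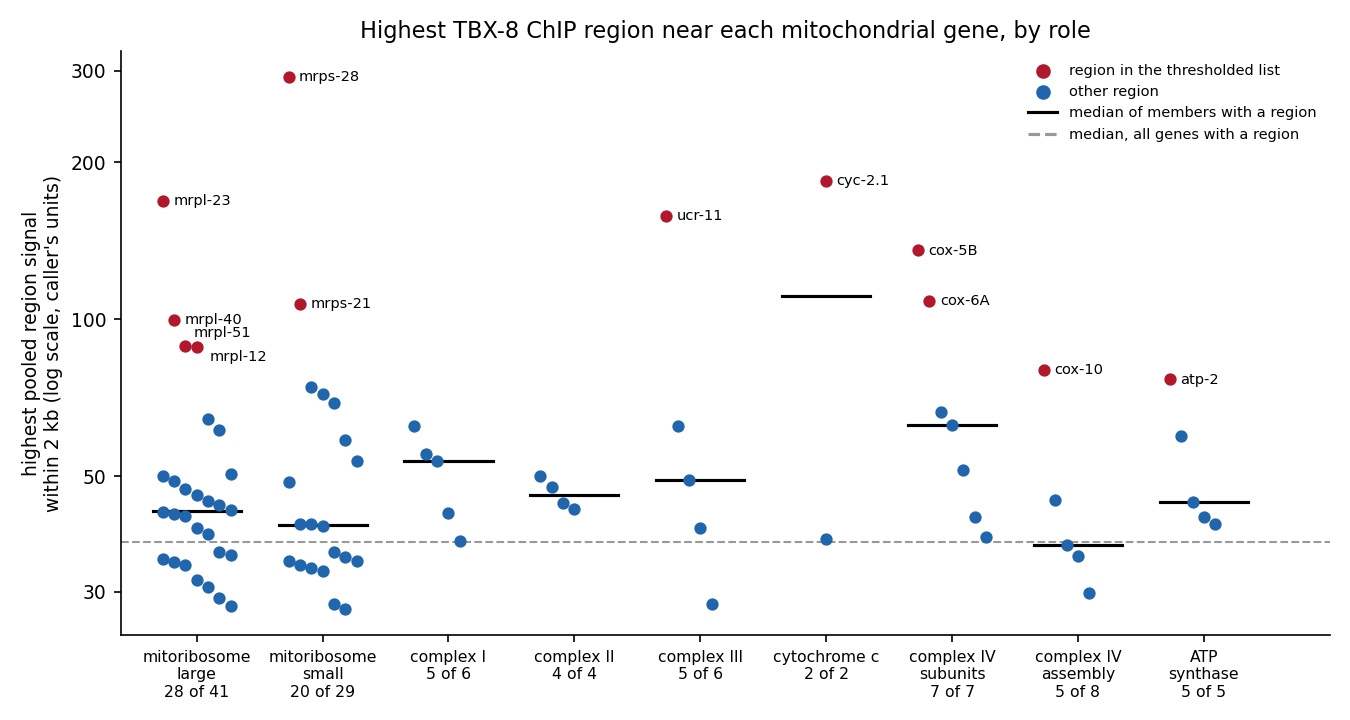
Highest pooled signal (log axis, the caller's units) within 2 kb of each of the 81 mitochondrial genes with a region, by role, with the number with a region of the number of genes under each role. Red points are thresholded peaks, black bars medians and the dashed line the median of all genes with a region (37.4). The median of cytochrome c (110.9, 2 genes) is the highest, then those of the complex IV subunits (62.7) and complex I (53.4). Complex III (49.2), complex II (46.1), the ATP synthase (44.6) and the large (42.9) and small (40.2) ribosomal subunits also stand above the line. The median of the assembly genes (36.9) is at it.

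Among the 38 genes for the respiratory chain, its assembly and the ATP synthase, 6 (15.8%) had a peak, against 3.04% of all genes. All 7 genes for complex IV subunits had a region (100%), against 47.5% of all genes. Of the 7, 2 (28.6%) had a peak, against 3.04%, and 3 (42.9%) a region at q below 0.05, against 4.85%. Their median rank was above 95.1% of all genes in the pooled list. Complex IV, cytochrome c oxidase, is the enzyme that reduces oxygen. Of its subunit genes, cox-5B had a signal of 67.0 in replicate 1, 69.8 in replicate 2 and 136 pooled (I, 9788522 to 9788981), and it was the one mitochondrial gene with a peak within 100 bp of its start (27 bp downstream, in the 5′ UTR). That start is an Ensembl one, and in RefSeq the gene starts 257 bp further downstream than the summit. For cox-6A the values were 52.8, 54.8 and 109, 797 bp upstream and 29 bp from a small RNA gene.

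For cox-6B the pooled region (66.3) lay in a coding exon of the neighbouring nduc-2, a gene named after a complex I subunit, with 32.7 in replicate 1 and 33.7 in replicate 2. Replicate 1 had a higher region (38.3) elsewhere within reach, and the region of that list in nduc-2 did not pass q below 0.05. For cox-7C the pooled region (51.4) lay in a coding exon 1236 bp upstream, nearer to F26E4.4, with 31.9 in replicate 2 but 15.99 in replicate 1, whose highest region for the gene (32.5) lay elsewhere. By their highest regions, these 4 complex IV subunit genes were in the top 10% of all genes in both replicates. For cox-5A the replicates ranked the gene less alike, with 43.99 in replicate 1, 24.97 in replicate 2 and 62.7 pooled. Replicate 1 placed cox-5A above 97.1% of genes and replicate 2 above 88.2%, but replicate 2 had 19.01 at the pooled region itself.

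Of the 8 assembly genes 1 (12.5%) had a peak, against 3.04% of all genes. This was cox-10, whose product makes the heme precursor of complex IV, with 41.6 in replicate 1, 38.4 in replicate 2 and 79.8 pooled. The summit was 1571 bp upstream, inside an annotated tRNA gene (Y38E10A.t1 in RefSeq), and 573 bp from the start of Y38E10A.22. The next were cox-16 (27.0 in replicate 2 and 45.0 pooled, 112 bp upstream) and cox-15, whose product acts after that of cox-10 in heme synthesis (30.1 in replicate 2 and 36.9 pooled). Replicate 1 had no summit within 100 bp of either pooled summit. None of the copper and insertion factor genes cox-17, cox-18 and cox-19 had a pooled region within 2 kb. The nearest summit to cox-18 was 3098 bp away with a signal of 78.3, high enough for the thresholded list.

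Cytochrome c is encoded by 2 genes in the worm, and they differed. The region at cyc-2.1 had 84.9 in replicate 1, 101.3 in replicate 2 and 184 pooled, above 99.4% of genes or more in each list. It was intergenic, more than 44 kb (44113 bp) from any small RNA gene, 1068 bp upstream of the nearest Ensembl start of cyc-2.1, 1631 bp from its RefSeq start and 160 bp from the start of Y17G9B.5. The region at cyc-2.2 had no counterpart in replicate 1, 19.7 in replicate 2 and 37.9 pooled, near the median of all genes with a region.

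For complex III, which hands electrons to cytochrome c, 1 of 6 genes (16.7%) had a peak, against 3.04% of all genes. This was ucr-11, with 84.5 in replicate 1, 76.6 in replicate 2 and 158 pooled (I, 6554441 to 6554900), inside the noncoding gene F57B10.17, 1292 bp upstream of ucr-11 and 58 bp from the start of the trehalase gene tre-1. The gene for cytochrome c1, cyc-1, was high in replicate 1 alone, with 47.3 in replicate 1 (above 97.6% of genes), 15.9 in replicate 2 (above 56.9%) and 62.3 pooled. Its pooled region lay 341 bp upstream of the start, where replicate 2 had 14.8. The core protein gene ucr-2.1 was uneven in the same direction, with 31.2, 16.3 and 49.2. Of the core protein genes, ucr-1 had no pooled region.

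All 5 ATP synthase genes had a region (100%), against 47.5% of all genes. Of the 5, 1 (20%) had a peak, against 3.04%, namely atp-2, which encodes the catalytic beta subunit. Its signals were 45.3 in replicate 1, 40.4 in replicate 2 and 76.7 pooled, just above the lowest signal of the thresholded list (75.8). The pooled summit was intergenic, 232 bp upstream, and atp-2 was the nearest start. The closest summit in replicate 2 was 82 bp away, but that in replicate 1 was 170 bp away. The pooled region at the alpha subunit gene atp-1 (59.6) lay 38 bp downstream of its start, within the 5′ UTR, with 28.0 in replicate 2. The highest region of replicate 1 within reach had 37.8, and the closest summit of that list was 202 bp from the pooled one. By these values atp-1 was in the top 10% of genes in both replicates without a peak. The gene atp-3 had 30.7, 14.2 and 44.6 at 9 bp, and fell below the median gene in replicate 2, above 47.3% of genes.

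The nuo- genes of complex I and the genes of complex II, the entry points for electrons, had no peak. The 0 of 6 complex I genes allows a share of up to 50% and the 0 of 4 complex II genes one of up to 75%, so a share like that of the other roles was not detectable as absent. In complex I, nuo-1, for the subunit that binds NADH, had a pooled region (62.4) 204 bp upstream in the noncoding gene C09H10.11, with 37.4 in replicate 1 and 19.5 in replicate 2. Replicate 2 had a higher region for nuo-1 (30.1) elsewhere within reach, which put the gene in the top 10% of genes in both lists. The next, nuo-3 (31.9, 20.7 and 55.2) and nuo-5 (17.7, 32.4 and 53.4), were each high in 1 replicate. The pooled summit for nuo-3 lay 1809 bp upstream in a coding exon, with Y57G11C.14 nearer (42 bp). That for nuo-5 lay 48 bp downstream of its own start. In complex II the 4 genes lay close together in the pooled list, between 43.3 and 49.9, with sdhd-1 (49.9) and sdha-2 (47.7) highest. The summit for sdhd-1 lay 1172 bp upstream with ilkp-1 nearer, and that for sdha-2 1912 bp upstream with kbp-5 nearer. Replicate 1 had no region within reach of sdha-2. The flavoprotein gene sdha-1 passed q below 0.05 in replicate 2 (34.9), with 44.4 pooled and the summit 32 bp from the snoRNA gene D2021.6. Replicate 1 had 14.8 for sdha-1, and the closest summit of that list was 1712 bp from the pooled one.

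Across the 71 mitochondrial genes with a region in both replicate lists, log2 signal correlated with Pearson's r of 0.71 and Spearman's rho of 0.42, a description across genes that share the same 2 libraries. Without mrps-28 and mrpl-23, the genes of highest signal in replicate 1, r was 0.61. Across 8452 other genes the values were 0.65 and 0.42. In both replicates 20 of the 108 (18.5%) were in the top 10% of genes, against 5.03% of all genes. The 20 comprised the 17 genes at q below 0.05 in the pooled list together with nuo-1, atp-1 and cox-7C. The pooled list came from these same 2 replicates, so this overlap is not independent of it and does not measure agreement. Of the 81 pooled summits, 57 had a summit of replicate 1 within 100 bp, 69 one of replicate 2, and 45 both.

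**Figure D3:**
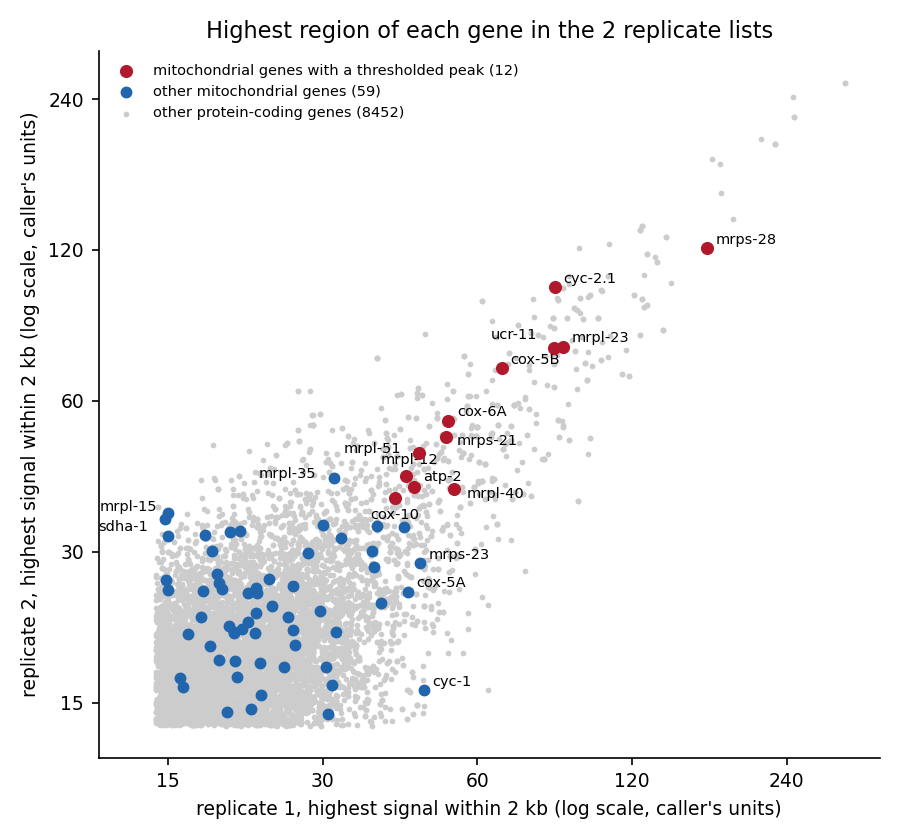
Highest signal within 2 kb in replicate 2 against replicate 1 (log axes, each in the caller's units) for mitochondrial genes with a thresholded peak (red), the other mitochondrial genes (blue) and other protein-coding genes (grey), where both lists hold a region. The 12 red points lie along the upper arm, while cyc-1, cox-5A, mrpl-15 and sdha-1 are high in 1 replicate only. The thresholded list came from both replicates, so the place of the red points is not independent of it.

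Some genes without a peak differed in rank between the replicates, though agreement within that group as a whole was not measured. The large subunit gene mrpl-15 had 15.02 in replicate 1 and 35.8 in replicate 2, at q below 0.05 in replicate 2 only. Both were away from its pooled summit, where the replicates had 14.9 and 15.5. Over all 108 genes, with those lacking a region at 0, the median gene stood above 80.1% of all genes in the pooled list, 67.2% in replicate 1 and 79.0% in replicate 2. The median signal of the 81 genes with a pooled region was 43.9, against 37.4 over all genes with one.

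Of the 12 peaks near mitochondrial genes, 6 (50%) had the member's own start as the nearest protein-coding start, against 61.2% of other genes with a peak. Only 2 (16.7%) lay within 500 bp, against 42.9%, and the median distance was 1027 bp, against 655 bp. A tRNA, snRNA or snoRNA gene lay within 200 bp of 4 of the 12 (33.3%), at mrps-28, mrpl-23, cox-6A and cox-10, against 29.7% of other genes with a peak. Over all 81 highest regions the order of distances turned round. The median was 614 bp, against 806 bp for other genes with a region, and 37 (45.7%) lay within 500 bp, against 35.8%. Coding exons held 23 of these 81 summits (28.4%, against 22.3%), introns 7 (8.64%, against 25.8%) and intergenic sequence 35 (43.2%, against 39.1%). As a whole, the highest regions lay nearer to the members' starts than the 12 peaks did.

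**Figure D4:**
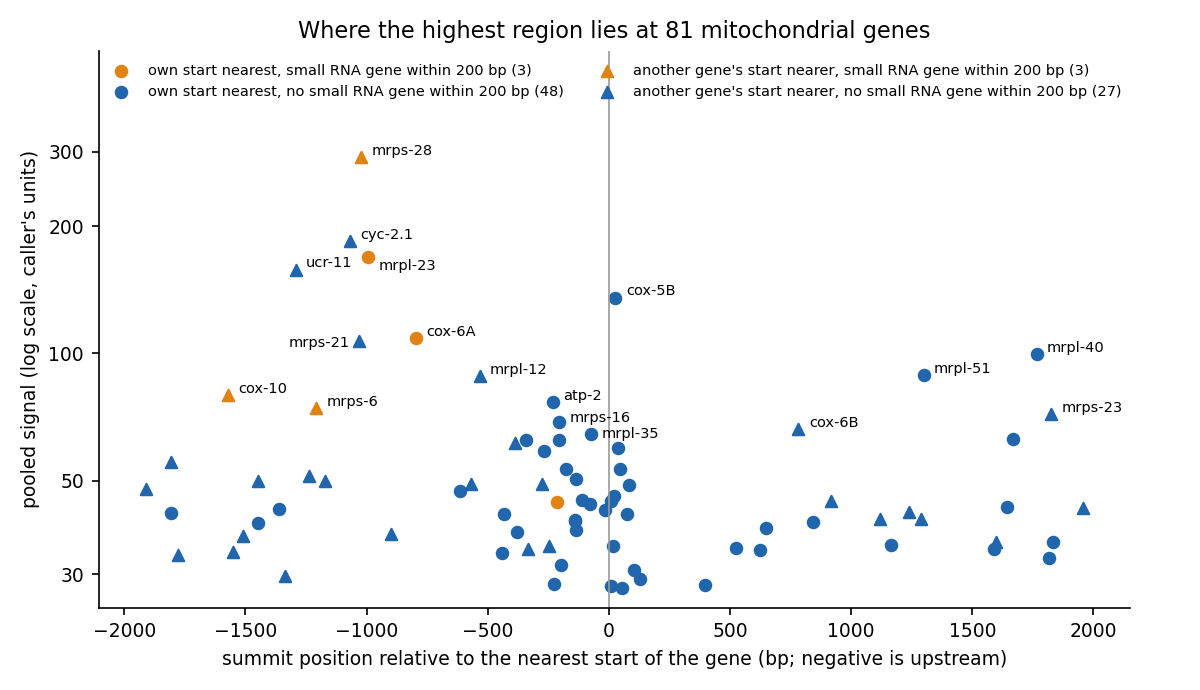
Pooled signal (log axis, the caller's units) of the highest region of each of the 81 mitochondrial genes against its distance from the nearest start of that gene. Circles have the member's own start nearest and triangles another gene's, and orange marks a small RNA gene within 200 bp. Regions above a signal of 100 lie mostly 797 to 1292 bp upstream, with cox-5B at its start as the exception.

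No T-box word was found under the peaks of the mitochondrial genes. The word GGTGTG, the core of sites that T-box proteins bind, was at 0 of the 12 summits, which allows a share of up to 25%, against 8.74% of other genes with a peak. It was at 0 of 17 at q below 0.05 (up to 17.6%), against 10.1%, and at 4 of all 81 (4.94%), against 6.74%. GAGAGA was at 0 of 12, against 29.6%, and at 9 of 81 (11.1%), against 16.1%. It occurred 3 times upstream of mrpl-35 and once upstream of mrps-16, in the sequences shown above. GGGCGG was at 3 of 12 (25%), against 16.8%, and at 10 of 81 (12.3%), against 7.15%, atp-2 and mrps-28 included. CACGTG was at 1 of 12 (8.33%), at mrpl-40, against 2.86%, and at 1 of 81 (1.23%), against 3.85%. GATAA was at 2 of 12 (16.7%), against 27.9%, and at 32 of 81 (39.5%), against 33.7%. Words were sought on both strands within 100 bp of the summit. A match is not a bound site, and a missing word says only that these letters are not in that window.

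The B box word GTTCGANNC was added after the sequences had been read, and its counts are a description only. It was under 4 of the 12 peaks (33.3%), at mrps-28, cox-10, mrpl-40 and cox-6A, against 18.3% of other genes with a peak, and under 5 of all 81 regions (6.17%), against 3.33%. Of these, cox-10 has an annotated tRNA gene at the summit, and cox-6A and mrps-28 have another small RNA gene within 29 bp. At mrpl-40 the nearest annotated small RNA gene was 38642 bp away. Among peaks with no small RNA gene within 200 bp the word was at 1 of 8 (12.5%), mrpl-40 itself, against 1.91% of other genes.

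Among the 108, 27 had no pooled region within 2 kb, against 10495 of all 19973 protein-coding genes. The lack of a region was thus less common here than over all genes. The 27 were 13 large and 9 small subunit genes, cox-17, cox-18, cox-19, nuo-4 and ucr-1. In symbol order the first 2 ribosomal ones were mrpl-1, with its nearest summit 28213 bp away, and mrpl-16, just outside the reach at 2087 bp with a signal of 27.8. The members just inside it were mrpl-10 at 1957 bp and sdha-2 at 1912 bp. In the replicate lists 17 of the 27 had a region in at least 1 list and 10 in neither. The nearest pooled summit was 2087 to 29174 bp away, with a median of 4203 bp.

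Genes under other symbols, for respiration and for related functions, had fewer peaks at 2 kb, but not nearer to the start. Of 110 such genes found in the annotation, 7 (6.36%) had a peak within 2 kb, against 3.04% of all genes, and 12 (10.9%) a region at q below 0.05, against 4.85%. The 7 were ndua-2 and nduf-9 (2 of 20 complex I genes), ears-2, for a mitochondrial glutamate tRNA synthetase (1 of 20 genes for mitochondrial translation and gene expression), the chaperonin gene hsp-60 and the import channel gene timm-23 (2 of 29 genes for import and quality control), and dlst-1 and idhg-1 (2 of 30 genes for the citric acid cycle and coenzyme Q). With a reach of 1 kb the count was 6 of 110, against 5 of the 108, and with 500 bp it was 4, against 2. Neither the 7 ATP synthase genes nor the 4 complex III and IV genes under other names had one. Among gene classes of like breadth of expression, 17 of 78 cytoplasmic ribosomal protein genes (21.8%) had a peak within 2 kb. So did 1 of 33 proteasome genes (3.03%), against 12 of the 108 (11.1%) and 3.04% of all genes. The ribosomal protein genes with a peak were 13 with a reach of 1 kb and 12 with 500 bp, against 5 and 2 of the 108. The proteasome genes had 0 at both. These classes also differ in number of neighbours, distance and gene number, and the differences between them were not tested.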

How the data were processed

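Both replicates were scored in the same way. Per the deposited file descriptions, regions were called by the authors on each replicate and on the pooled alignments with a control, on ce11, and an irreproducible discovery rate step left the thresholded list. The aligner was not given in the sources used here, nor was the caller. The authors' deposited signal is the caller's own value per region, not scaled between lists, and the deposited −log10 q-value was used for q below 0.05. Each gene took the highest signal among regions with a summit within 2 kb of any of its starts (Ensembl release 115, 29784 distinct starts), and its percentile is the share of all genes below it. The members and lists were chosen with earlier results of these data known. Genes named are all with a peak or at q below 0.05, the 3 of highest signal per role, those in the top 10% in both replicates, the lowest, and 5 with no region; others named were chosen after their values were seen. Scoring was checked on regions placed at known distances. Of the genes sought under other symbols, 15 were not found. Alternatives changed the reach, the assignment, the small RNA regions, the thresholds, the word window and the replicates. Intervals are exact Clopper-Pearson intervals, and a count of 0 allows 3 counts of the total. Python 3.11.15, pandas 2.3.3, numpy 2.4.6, scipy 1.17.1 and matplotlib 3.10.9 were used. The sequence at cox-6A is not reported here.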

Additional observations from a re-analysis of the deposited data

How the results depend on the processing

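Reach and assignment moved the counts most. The 12 mitochondrial genes with a peak became 5 with a reach of 1 kb, 2 with 500 bp, 6 with the nearest start only and 7 in the upper part of the thresholded list by signal, or 4.63%, 1.85%, 5.56% and 6.48%, against 2.02%, 1.31%, 1.86% and 1.63% of all genes. They stayed within 1.5 times at 18 with 5 kb (16.7%, all genes 5.89%) and 12 by any base (11.1%, all genes 3.24%). Without regions near small RNA genes 8 remained (7.41%, all genes 2.13%), also within 1.5 times. For single replicates, counts of peaks here and below used the 521 regions of highest signal in that replicate's list. No q or reproducibility cut was applied to these regions. By that rule 13 genes counted in each replicate, against 2.96% to 3.03% of all genes. The 17 at q below 0.05 became 8 (7.41%), 5 (4.63%) and 8 (7.41%) with 1 kb, 500 bp and the nearest start, against 3.24%, 2.18% and 3.07% of all genes, and ran from 18 to 20 in single replicates, against 4.58% to 5.15%. The median percentile of 80.1 became 0 with 500 bp and 69.4 with the nearest start, and ran from 67.2 to 79.0 in single replicates. Genes with no region in reach stood at 0, so the 0 with 500 bp says only that most members had none there. Over all genes the pooled median was 0 already at 2 kb. The 4 summits with GGTGTG became 2 within 50 bp and 7 within 200 bp of the summit, with 3 to 4 in single replicates, and the 6 near small RNA genes 5 to 6. The genes under other symbols (7) became 4 with 500 bp, 14 with 5 kb and 4 with the nearest start, with 6 to 10 in single replicates. Cytoplasmic ribosomal genes (17) became 8 with the nearest start, with 15 to 16 in single replicates. Proteasome genes (1) became 0 with 1 kb, 500 bp and the nearest start and 3 with 5 kb, with 1 to 2 in single replicates. The single-replicate settings for positions and words, and every setting for the other gene classes, were added after seeing the data. All 12 genes with a peak had one of the 521 highest regions of replicate 2 within reach, and so did mrpl-35. In replicate 1, 10 of the 12 did, without cox-10 and mrpl-12, and cox-5A, cyc-1 and mrps-23 were added. The thresholded list itself came from both replicates, so these overlaps are not independent of it. The cause of these shifts was not tested. No paired analysis was possible because both replicates belong to 1 group. The 2 libraries, the unknown depth and the unscaled signal limit what the lists can show, and a region in reach does not say which gene it belongs to.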
